A study of Mus musculus with 15 samples.

Results

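DHRS2 and 7 of its relatives in the short-chain dehydrogenase/reductase family were followed through every library of a hairpin experiment in cells labelled as a breast cancer line. The 8 genes, DHRS2, DHRS1, DHRS3, DHRS4, DHRS7, DHRS7B, DHRS11 and DHRS13, were found by symbol among 56967 gene names used from the deposited count tables. DHRS2 was selected on its measured counts, which are higher in all 4 hairpin sets than in the control, and the other 7 were taken by name for contrast. Its level against the control is therefore given as a description, without a test. All 8 had enough counts to be tested, as had 19051 genes in all.

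Messenger RNA had been sequenced in 15 libraries of cells that the labels call MDA-MB-468, a widely used line of basal-like breast cancer, with 3 libraries in each of 5 groups. Every group carried a short hairpin RNA: a control hairpin (NC), either of 2 against SHCBP1 (shSHCBP1_1 and shSHCBP1_2) or either of 2 against TMEM45A (shTMEM45A set 4 and set 2, named after their columns). The series' text says that the hairpins were transfected, that the cells grew in DMEM with fetal bovine serum, and it names no promoter, clone or selection. SHCBP1 encodes an SHC-binding protein of dividing cells, TMEM45A a transmembrane protein, and the series title places both in a prognosis model for breast cancer.

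Short-chain dehydrogenases are enzymes that move hydride between a substrate and NAD(H) or NADP(H). Their substrates include retinoids, steroids, prostaglandins, sugars and small carbonyl compounds. DHRS2, also known as HEP27, is a carbonyl reductase found in mitochondria and the nucleus. It has been reported to bind MDM2, a ubiquitin ligase, and to be induced by histone deacetylase inhibitors. DHRS3 reduces retinaldehyde to retinol, DHRS4 is a peroxisomal carbonyl and retinal reductase, and DHRS7B is a peroxisomal reductase in ether lipid synthesis. DHRS7 and DHRS1 are reductases of the endoplasmic reticulum, and DHRS11 reduces keto groups of steroids.

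Library totals ran from 13748138 to 16460265 counts, so that 3 counts in a library correspond to at most 0.229 CPM (counts relative to the library total). Levels below are CPM scaled by TMM, a scaling that sets the bulk of genes equal between libraries, and are given as mean ± SD. CPM are not corrected for gene length, so a gene is compared only with itself. In a bulk sample, fewer cells that express a gene and less RNA per cell cannot be told apart. SHCBP1 itself was not lower in the libraries labelled shSHCBP1, with 44.1 ± 2.53 CPM in NC (n = 3), 47.1 ± 1.25 in shSHCBP1_1 and 44.3 ± 1.11 in shSHCBP1_2. TMEM45A was lower in both shTMEM45A sets, at 17.8 and 19.4 CPM against 26.6 in NC (log2 changes of -0.58 and -0.46, edgeR adjusted p = 8.799e-06 and 0.0001815). In these comparisons 38.9% and 39.8% of all genes tested were called lower. Of 20 markers set for a basal breast line, 5 had 0 counts in every library (KRT5, KRT6A, KRT6B, KRT16 and TP63), whereas KRT8 and KRT18, keratins of simple epithelium, were present. Further markers of the list were near the floor in NC. Over its 3 libraries KRT14 had 7 counts, KRT17 had 5, ESRP1 had 4, KRT19 had 1 and KRT7 had 0. Of the 20, 11 had enough counts to test, among them FOXC1 at 93.7 CPM in NC and EGFR at 16.3. In NC the neurofilament genes NEFM and NEFL stood at 254.5 and 175.8 CPM, and NEFH at 0.51. The 5 markers without counts and those near the floor go against the label, while others of the list were present. The line is therefore given here only as labelled, and its identity is uncertain. NC and shSHCBP1 libraries stand in the same deposited table and shTMEM45A libraries in the other, so in any comparison across the tables the target and the table cannot be told apart.

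DHRS2 had its lowest level in NC and its highest in shTMEM45A set 2, with each group of 3 libraries apart from the next in TMM-scaled CPM. In NC its counts were 57, 64 and 65, which are 3.96, 4.48 and 4.49 CPM. The 3 shSHCBP1_1 libraries stood at 28.6, 29.8 and 31.4 CPM, and those of shSHCBP1_2 at 51.3, 51.4 and 56.3 CPM. No library of either set came near the NC range, and the highest of shSHCBP1_1 lay below the lowest of shSHCBP1_2. In shTMEM45A set 4 the levels were 72.7, 74.4 and 71.2 CPM, and in set 2 they were 103.7, 108.7 and 111.4 CPM. Group means were 4.31 ± 0.306 CPM in NC (SD, n = 3), 29.95 ± 1.39 in shSHCBP1_1, 52.98 ± 2.87 in shSHCBP1_2, 72.8 ± 1.58 in set 4 and 107.9 ± 3.91 in set 2. Against NC these means were 6.95, 12.3, 16.9 and 25.1 times as high. The fitted log2 changes against NC were 2.79 (SE 0.10) in shSHCBP1_1 and 3.62 (SE 0.09) in shSHCBP1_2. They were 4.07 (SE 0.09) in set 4 and 4.64 (SE 0.09) in set 2.

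**Figure D1:**
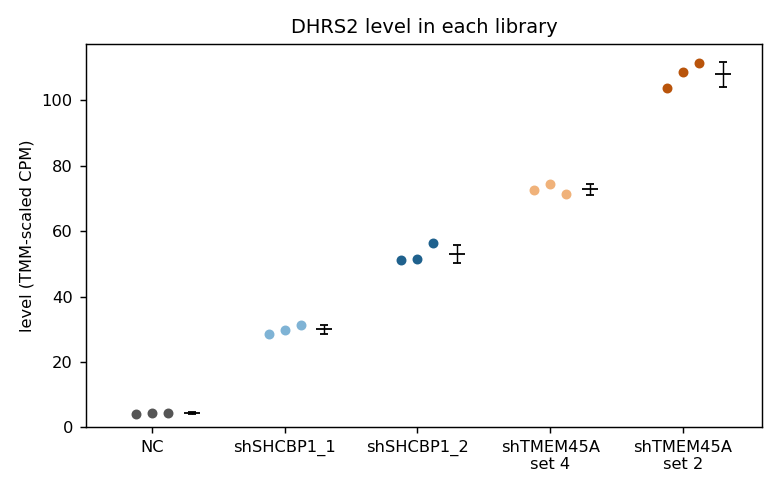
DHRS2 level in each of the 15 libraries, in TMM-scaled CPM on a linear axis from 0, by group; points are libraries and the black mark with bars is the mean and SD of 3. The NC libraries lie at 3.96 to 4.49 CPM and the groups do not overlap on this scale, up to 103.7 to 111.4 CPM in shTMEM45A set 2.

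Of the 19051 genes tested, 1187, or 6.23%, were called higher at an adjusted p under 0.05 in all 4 sets, and 1250, or 6.56%, were called lower in all 4. All 4 comparisons share the same 3 NC libraries. CPM ranges lay wholly above NC in 20.2%, 25.1%, 36.2% and 35.5% of genes (shSHCBP1_1, shSHCBP1_2, set 4, set 2) and wholly below in 21.3%, 25.1%, 40% and 39.4%. Within the 12415 genes with a mean log2 CPM of at least 2, the log2 change of DHRS2 ranked 2nd in shSHCBP1_1, 2nd in shSHCBP1_2, 4th in set 4 and 4th in set 2. Among all 19051 genes, where weakly counted genes reach large ratios, it ranked 38th, 19th, 75th and 62nd. DHRS7B came nearest to the same pattern among the other 7, with log2 changes of 0.25, 0.52, 1.59 and 1.82 in the same order of sets, the first of which was not called.

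Comparisons between hairpin sets do not use NC. DHRS2 was higher in shSHCBP1_2 than in shSHCBP1_1 by a log2 change of 0.82 (SE 0.07, edgeR quasi-likelihood test, adjusted p = 1.314e-08), a ratio of 1.77. All 3 libraries of the first lay above all 3 of the second, which held for 12.8% of all genes (11.7% lay wholly below). Between these sets 0.835% of genes tested were called, 0.499% higher and 0.336% lower, and DHRS2 had the 4th largest rise among the 12415 better counted genes. Between the shTMEM45A sets DHRS2 was higher in set 2 by 0.57 (SE 0.06, adjusted p = 4.279e-07), a ratio of 1.48, again with no overlap of libraries, as in 7.52% of all genes upward and 8.71% downward. Here 5.27% of genes were called, 1.95% higher and 3.32% lower, and DHRS2 ranked 64th. Within each target the libraries come from the same deposited table.

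The mean of both shTMEM45A sets lay above that of both shSHCBP1 sets by a log2 change of 1.15 for DHRS2 (SE 0.05, edgeR adjusted p = 4.425e-20), a ratio of 2.23. In TMM-scaled CPM all 6 shTMEM45A libraries were above all 6 shSHCBP1 libraries. In this comparison 79.3% of all genes tested were called, 35.2% higher and 44.1% lower, and DHRS2 ranked 1236th among the better counted genes. Over the alternatives this difference ran from 0.81 to 1.21. The neighbours shSHCBP1_2 and set 4 were 51.3 to 56.3 and 71.2 to 74.4 CPM, ranges that do not overlap under TMM. This gap depends on the scaling. Relative to library totals alone, shSHCBP1_2 library 3 (881 of 13842084 counts) lay slightly above set 4 library 3 (933 of 14733162). These sets were not tested one against one.

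Of the other 7 members, 1 passed the test in a shSHCBP1 set and all 7 in the shTMEM45A sets. In shSHCBP1_1 0 were called higher and 0 lower, where 9.34% of all genes tested were called higher and 10.5% lower. In shSHCBP1_2, 1 was called higher (DHRS7B) and 0 lower, against 15.6% and 15.4% of all genes. In shTMEM45A set 4, 6 were higher and 1 was lower (DHRS13), where 74.4% of genes were called, 35.6% higher and 38.9% lower. Set 2 gave the same counts of 6 and 1, where 75.9% were called, 36.1% higher and 39.8% lower. In shSHCBP1_1 and shSHCBP1_2 the calls in either direction came to 19.9% and 31.1%. The median log2 change of the 7 was 0.11, 0, 0.47 and 0.31 in the order shSHCBP1_1, shSHCBP1_2, set 4 and set 2, and that of all genes tested was 0.01, 0.01, -0.03 and -0.04. Scaling by total counts alone instead of TMM moved the median of all genes to 0.15, 0.17, -0.23 and -0.23, and the count of higher members in set 2 to 3.

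**Figure D2:**
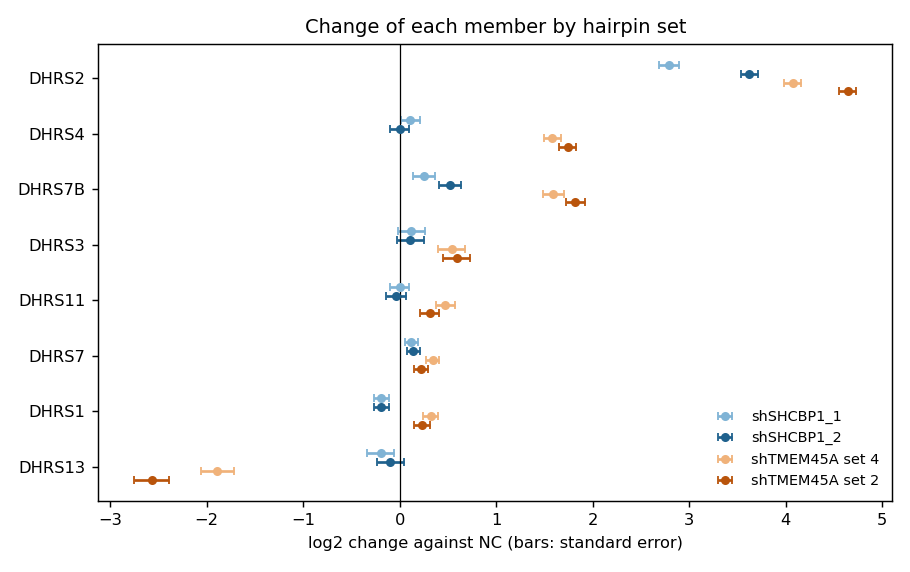
Log2 change against NC of the 8 genes in each hairpin set, with bars of 1 standard error from the fit of all 15 libraries. DHRS2 lies at 2.79 to 4.64, DHRS4 and DHRS7B exceed 1.5 in the shTMEM45A sets and not in the shSHCBP1 sets, and DHRS13 lies at -1.89 and -2.57 there.

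DHRS4 stayed within its NC range in the shSHCBP1 sets and was about 3 times as high in the shTMEM45A sets. Its 3 NC libraries stood at 16.8, 16.1 and 20.7 CPM. Those of shSHCBP1_1 stood at 19.9, 19.0 and 18.9 CPM and those of shSHCBP1_2 at 16.7, 18.5 and 18.5, inside the NC range. In set 4 the levels were 52.3, 56.9 and 51.2 CPM and in set 2 they were 64.5, 56.0 and 58.7. These 6 libraries overlap each other and lie far above the other 9. The log2 changes came to 1.58 in set 4 (SE 0.09, edgeR adjusted p = 5.777e-16) and to 1.74 in set 2 (SE 0.09, adjusted p = 4.04e-17). They were 0.11 and 0 in shSHCBP1_1 and shSHCBP1_2, neither past the threshold. DHRS4 did not differ past the threshold between set 2 and set 4 (0.16, SE 0.08, adjusted p = 0.2772).

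DHRS4 has near-identical neighbours, DHRS4L1 and DHRS4L2, and an antisense transcript, DHRS4-AS1. How reads shared between the copies were counted is not given in the sources used here, and the library kit does not mark strand, so the split of counts between these 4 genes is uncertain. DHRS4L2 stood at 10.75 ± 0.223 CPM in NC, 12.7 ± 0.785 in shSHCBP1_1 and 12.7 ± 1.19 in shSHCBP1_2 (SD, n = 3). It reached 54.7 ± 4.08 CPM in set 4 and 63.2 ± 4.19 in set 2, log2 changes of 2.35 and 2.56 (SE 0.09 for each, edgeR adjusted p = 9.229e-20 and 7.776e-21). DHRS4-AS1 went the other way: 20.6 ± 0.576 CPM in NC, 12.9 ± 1.31 in set 4 and 10.75 ± 2.74 in set 2, log2 changes of -0.68 and -0.94 (SE 0.13 for each, adjusted p = 2.264e-05 and 1.685e-07). In the shSHCBP1 sets DHRS4-AS1 changed by 0.17 and 0.11 and was not called. DHRS4L1 had 30, 33, 31, 12 and 16 counts over the 3 libraries of NC, shSHCBP1_1, shSHCBP1_2, set 4 and set 2, and was not called in any of these comparisons with NC.

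**Figure D3:**
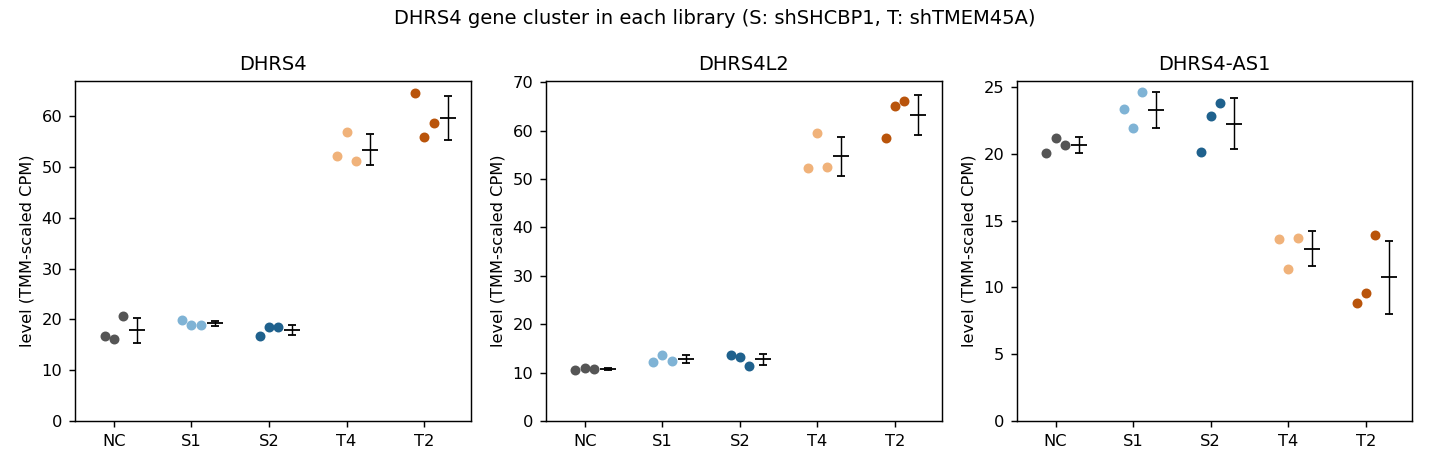
Levels of DHRS4, DHRS4L2 and DHRS4-AS1 in each library, in TMM-scaled CPM from 0; S1 and S2 are shSHCBP1_1 and shSHCBP1_2, T4 and T2 are shTMEM45A set 4 and set 2, and black marks give the mean and SD of 3. DHRS4 and DHRS4L2 exceed 50 CPM in every shTMEM45A library, and DHRS4-AS1 lies below its NC level of 20.6 CPM in each of them.

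DHRS7B, the peroxisomal enzyme of ether lipid synthesis, rose in 3 of the 4 sets. NC libraries held 12.8, 15.0 and 13.3 CPM, and shSHCBP1_1 libraries 16.3, 17.9 and 14.7, which overlaps NC. In shSHCBP1_2 the levels were 19.7, 18.9 and 20.5 CPM, above both. Set 4 stood at 41.5, 40.6 and 41.5 CPM and set 2 at 54.4, 40.1 and 51.4. Replicate 2 of set 2 is the low one, below the set 4 range, and its group has the widest spread of the 5 (SD 7.50). The log2 change was 0.25 (SE 0.11, edgeR adjusted p = 0.127) in shSHCBP1_1 and 0.52 (SE 0.11, adjusted p = 0.0005472) in shSHCBP1_2. It was 1.59 (SE 0.11, adjusted p = 2.539e-14) in set 4 and 1.82 (SE 0.10, adjusted p = 5.836e-16) in set 2. Neither set against set within a target passed, with 0.27 (SE 0.11, adjusted p = 0.3013) for shSHCBP1_2 over shSHCBP1_1 and 0.24 (SE 0.09, adjusted p = 0.1436) for set 2 over set 4. Without replicate 2 of set 2 the latter became 0.36 with an adjusted p of 0.009613.

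DHRS3, the retinaldehyde reductase, rose in the shTMEM45A sets by about 1.5 times. Its levels were 11.7, 8.33 and 10.6 CPM in NC, 10.3, 12.4 and 10.5 in shSHCBP1_1 and 12.7, 10.8 and 9.58 in shSHCBP1_2. These 3 groups overlap. The shTMEM45A libraries stood at 15.3, 13.3 and 15.95 CPM in set 4 and 15.9, 15.1 and 14.9 in set 2, all above the NC range. DHRS3 changed by 0.54 in set 4 on the log2 scale (SE 0.14, edgeR adjusted p = 0.0008541) and by 0.59 in set 2 (SE 0.14, adjusted p = 0.0003498). They were 0.12 and 0.11 in the shSHCBP1 sets, neither past the threshold.

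DHRS11, the reductase of steroid keto groups, stood at 29.57, 26.6 and 29.0 CPM in NC and at 25.5 to 31.0 CPM over the 6 shSHCBP1 libraries. Set 4 held 41.9, 37.7 and 38.3 CPM. Set 2 held 37.3, 29.65 and 38.7, where replicate 2 again was low and lay just above the NC range. DHRS11 rose by a log2 change of 0.47 in set 4 (SE 0.10, edgeR adjusted p = 6.426e-05) and 0.31 in set 2 (SE 0.10, adjusted p = 0.004882). The call in set 2 was lost under total-count scaling (0.12, adjusted p = 0.2564).

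DHRS7 and DHRS1, both reductases of the endoplasmic reticulum, had the smallest changes in the shTMEM45A sets. DHRS7 stood at 48.5, 44.5 and 43.8 CPM in NC, 55.1 to 59.5 CPM in set 4 and 52.0 to 54.4 CPM in set 2. Its log2 change was 0.34 in set 4 (SE 0.07, edgeR adjusted p = 4.31e-05) and 0.22 in set 2 (SE 0.07, adjusted p = 0.003954). Its levels of 48.2 to 52.2 CPM in the 6 shSHCBP1 libraries overlapped NC in shSHCBP1_2 and lay just above it in shSHCBP1_1, with changes of 0.12 and 0.14 that were not called. DHRS1 was tight in NC, at 38.7, 38.1 and 37.9 CPM. It stood lower in all 6 shSHCBP1 libraries, at 30.8 to 37.2 CPM, and higher in all 6 shTMEM45A libraries, at 40.9 to 51.2 CPM. Singly the shSHCBP1 sets did not pass for DHRS1 (-0.19 in both, SE 0.08, adjusted p = 0.1048 and 0.07815), and their mean did (-0.19, SE 0.07, adjusted p = 0.04028). The shTMEM45A sets passed, with 0.32 (SE 0.08, adjusted p = 0.0006852) in set 4 and 0.23 (SE 0.08, adjusted p = 0.009983) in set 2. Under total-count scaling the DHRS1 changes were -0.04, -0.02, 0.13 and 0.04 and no set passed, and the set 2 change of DHRS7 was 0.03 (adjusted p = 0.6912). Without replicate 3 of set 2 the DHRS1 change there was 0.17 (adjusted p = 0.08017), and with no filter on low counts it was 0.19 (adjusted p = 0.05031).

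DHRS13 was the only one of the 8 that fell in the shTMEM45A sets. NC libraries stood at 15.5, 14.35 and 14.4 CPM, and the shSHCBP1 libraries at 12.5 to 14.8. Set 4 held 3.91, 3.44 and 4.58 CPM and set 2 held 2.69, 1.55 and 3.20, with no overlap between the sets or with the other groups. DHRS13 changed by -1.89 in set 4 on the log2 scale (SE 0.17, edgeR adjusted p = 1.32e-11) and by -2.57 in set 2 (SE 0.18, adjusted p = 5.049e-14). They were -0.20 and -0.10 in the shSHCBP1 sets, not past the threshold. Set 2 lay below set 4 by -0.68 (SE 0.21), which narrowly missed the threshold (adjusted p = 0.05103) and passed it under 6 of the alternatives, with values from -0.91 to -0.68 there.

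**Figure D4:**
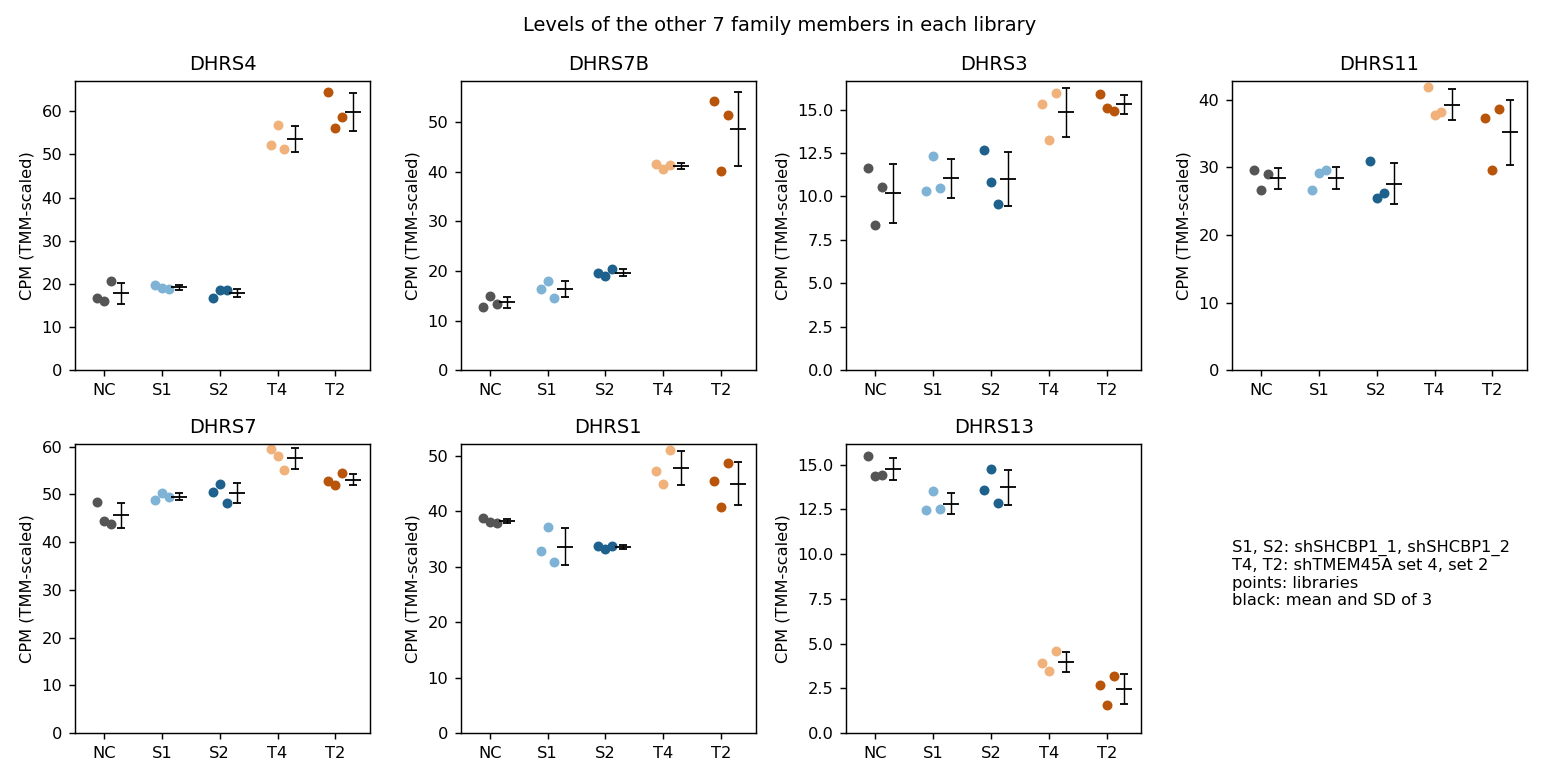
Levels of the other 7 members in each library, in TMM-scaled CPM on linear axes from 0, with 1 panel a gene; points are libraries and black marks the mean and SD of 3. DHRS13 falls from 14.8 CPM in NC to 3.98 and 2.48 in the shTMEM45A sets, and DHRS1 lies below its NC level in the shSHCBP1 libraries and above it in the shTMEM45A libraries.

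Between the targets, without NC, 6 of these 7 members were higher in the shTMEM45A sets and DHRS13 was lower, where 35.2% of all genes tested were called higher and 44.1% lower. DHRS4 led with a log2 difference of 1.61 (SE 0.06, edgeR adjusted p = 1.922e-20), followed by DHRS7B with 1.32 (SE 0.07, adjusted p = 7.705e-17). DHRS1 and DHRS3 differed by 0.46 and 0.45 and DHRS11 by 0.41. DHRS7 differed by 0.15 (SE 0.05, adjusted p = 0.004695), and under total-count scaling its sign turned to -0.20 (adjusted p = 0.0003091), where the median of all genes was -0.47. Under that scaling 2 of the 7 were higher and 2 lower, and the calls of DHRS1 (0.12, adjusted p = 0.05174), DHRS3 (0.10, adjusted p = 0.3123) and DHRS11 (0.06, adjusted p = 0.3673) were lost. With no filter on low counts DHRS7 was not called (0.12, adjusted p = 0.06851). DHRS13 differed by -2.08 (SE 0.12, adjusted p = 5.834e-16). In TMM-scaled CPM, libraries of the targets did not overlap for DHRS1, DHRS3, DHRS4, DHRS7B and DHRS13, and overlapped for DHRS7 and DHRS11. Non-overlap of this kind held for 25.7% of all genes upward and 33.3% downward. Within targets, 0 of the 7 passed in either direction for shSHCBP1_2 against shSHCBP1_1 and for set 2 against set 4, where DHRS2 passed in both. At an unadjusted p, DHRS7B had 0.01681 and 0.01658 in these comparisons and DHRS13 had 0.00276 in the second.

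Over the 15 libraries, the log2 CPM of DHRS2 had a Pearson correlation of 0.807 with DHRS7B, 0.779 with DHRS7, 0.684 with DHRS4 and 0.678 with DHRS3. It was 0.507 with DHRS11, 0.35 with DHRS1 and -0.698 with DHRS13. These are descriptions, since the libraries fall into 5 groups and the genes share the libraries.

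Beyond the 8, a list of 10 further genes carrying the DHRS name or a synonym of it held 8 that could be tested. In the shSHCBP1 sets 0 were higher, and 0 and 1 were lower, the 1 being HSD17B11 in shSHCBP1_2 (-0.31, SE 0.10, edgeR adjusted p = 0.02004). This call was lost under total-count scaling and on leaving out NC replicate 1 or 2 or shSHCBP1_2 replicate 1 or 3. In set 4 and in set 2, 5 were higher and 1 was lower, with median log2 changes of 0.75 and 0.97. The 1 lower was the antisense transcript DHRS4-AS1. Among the 5 higher was DHRS4L2, whose counts cannot be surely split from those of DHRS4. Of all genes, 35.6% were called higher and 38.9% lower in set 4, and 36.1% and 39.8% in set 2. In shSHCBP1_1 these shares were 9.34% and 10.5%, and in shSHCBP1_2 they were 15.6% and 15.4%. DHRSX stood at 10.3 ± 2.04 CPM in NC and rose to 19.1 ± 0.512 (set 4) and 24.6 ± 1.76 (set 2). DHRS12 rose from 2.45 ± 1.11 CPM to 6.54 ± 0.852 and 7.05 ± 1.47. HSD17B14, a steroid dehydrogenase, rose from 7.44 CPM to 23.6 and 22.9 CPM, and BDH2, a cytosolic hydroxybutyrate dehydrogenase, from 14.6 to 22.3 and 23.4 CPM. DHRS9, a retinol dehydrogenase, had too few counts to test, with 0 in NC, 2 and 1 in the shSHCBP1 sets, 12 in set 4 and 9 in set 2.

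Other short-chain dehydrogenases moved in both directions. Of 47 listed, 36 were tested. In shSHCBP1_1 5 were higher and 3 lower, and in shSHCBP1_2 6 and 2, with medians of 0.02 and -0.02. In set 4, 23 were higher and 8 lower, and in set 2 21 and 7, with medians of 0.47 and 0.55 beside -0.03 and -0.04 for all genes. The share of all genes called in either direction was 19.9%, 31.1%, 74.4% and 75.9% in the order shSHCBP1_1, shSHCBP1_2, set 4 and set 2. Under total-count scaling the shSHCBP1 counts became 9 and 1, and 12 and 1, and under RLE scaling 2 and 3, and 3 and 5. RDH14, a retinal reductase, was the largest rise in the mean of both shSHCBP1 sets (log2 change 0.95, SE 0.13, edgeR adjusted p = 1.716e-06). Its levels were 6.93 CPM in NC, 12.6 and 14.3 in the shSHCBP1 sets, and 22.1 and 25.45 in set 4 and set 2. CBR3, a carbonyl reductase, stood at 2.36 CPM in NC, at 3.75 and 3.67 in the shSHCBP1 sets and at 13.2 and 12.5 in the shTMEM45A sets (mean changes of 0.65 and 2.44). Its neighbour in function CBR1 changed by 0.25 and 1.54, both called.

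HSD17B10, a mitochondrial enzyme that is also a subunit of RNase P, changed by 1.76 in the mean of both shTMEM45A sets (edgeR adjusted p = 8.421e-24) and by 0.07 in that of both shSHCBP1 sets (not called). DCXR, which reduces xylulose, changed by 1.37 and -0.10 likewise, the latter not called. HSD17B8, a mitochondrial enzyme of fatty acid synthesis, fell by 0.59 in the mean of both shSHCBP1 sets (SE 0.08, adjusted p = 1.783e-06) and stood at 0.07 in the shTMEM45A sets, not called. QDPR, which regenerates tetrahydrobiopterin, fell by 0.28 in the former. TGDS fell by 0.24 in the shSHCBP1 sets and by 1.44 in the shTMEM45A sets. HSDL2 had mean changes of 0.01 (not called) and 0.16 (adjusted p = 0.01779). SDR16C5, a retinol dehydrogenase, had 14 counts over the NC libraries, 22 and 7 in the shSHCBP1 sets and 55 and 46 in the shTMEM45A sets. RDH5, also a retinol dehydrogenase, had 38 counts over the NC libraries and 2 in each shTMEM45A set, a ratio of 0.055 in set 4 (exact 95% interval 0.00643 to 0.213, which covers counting error only).

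Retinoid genes, the setting in which DHRS3 and DHRS4 act, split in direction. Of 24 tested, 2 were higher and 4 lower in shSHCBP1_1, 5 and 6 in shSHCBP1_2, and 10 and 12 in set 4 and again in set 2, beside 19.9%, 31.1%, 74.4% and 75.9% of all genes called in either direction. The medians were 0.01, -0.02, 0.03 and -0.17. Under total-count scaling more were higher than lower in the shSHCBP1 sets (7 and 2, 6 and 2). Of the calls over all genes, 86.1% and 81.7% were then higher in these sets. CYP26A1, which degrades retinoic acid, stood at 6.86 CPM in NC and at 0.644 and 0.382 CPM in set 4 and set 2, a mean log2 change of -3.76 (SE 0.25, edgeR adjusted p = 1.078e-14), and a mean change of -0.50 in the shSHCBP1 sets (adjusted p = 0.04118). CRABP2, which carries retinoic acid to its receptor, stood at 194.7 CPM in NC, 174.1 and 169.9 in the shSHCBP1 sets and 287 and 255.8 in the shTMEM45A sets. Those changes of CRABP2, -0.18 and 0.48 as means of a target, were both called and opposite in sign under TMM. Total-count scaling moved the median of all genes in the shSHCBP1 sets from 0.01 to 0.15 and 0.17. The -0.18 is of similar size, so its sign may depend on the scaling. RETSAT, which saturates retinol, fell in both (-0.42 and -1.22), as did DGAT1, which can esterify retinol (-0.29 and -0.26), and the receptor gene RXRB (-0.31 and -0.27). RDH13, a retinal reductase, rose in both (0.31 and 1.36). BCO1, which cleaves beta-carotene to retinal, had 3 counts over the NC libraries, 17 and 15 in the shSHCBP1 sets, 17 in set 4 and 47 in set 2, where the ratio to NC was 16.2 (exact 95% interval 5.22 to 81.4).

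Histone deacetylases and acetyltransferases were listed because deacetylase inhibitors are known to induce DHRS2. Of 27 tested, 0 were higher and 7 lower in shSHCBP1_1, 0 and 10 in shSHCBP1_2, 4 and 19 in set 4, and 4 and 20 in set 2. Of all genes, 10.5%, 15.4%, 38.9% and 39.8% were called lower in these sets and 9.34%, 15.6%, 35.6% and 36.1% higher. Medians were -0.12, -0.14, -0.57 and -0.70, beside 0.01, 0.01, -0.03 and -0.04 for all genes. The counts in the shSHCBP1 sets depended on scaling, with 1 higher and 1 lower, and 5 and 3, under total counts. Under RLE scaling they were 0 and 11, and 0 and 14. The medians of the list moved with those of all genes. Under total counts they were 0.02 and 0.02, beside 0.15 and 0.17 for all genes. Under RLE scaling they were -0.19 and -0.22, beside -0.06 and -0.07. In the shTMEM45A sets more were lower than higher under total counts too (1 and 22, and 1 and 20). HDAC1, a nuclear deacetylase, stood at 458.3 CPM in NC, 432.3 and 413.4 in the shSHCBP1 sets and 371.4 and 386.2 in the shTMEM45A sets (mean changes of -0.12 and -0.28, edgeR adjusted p = 0.01146 and 3.176e-08). HDAC2 changed by -0.12 and 0.19, both called, and HDAC6, a cytoplasmic deacetylase, by -0.42 and -0.89. MTA1, a subunit of the NuRD deacetylase complex, stood at 314 CPM in NC and fell to 133.7 (set 4) and 100.6 CPM (set 2). Its relative MTA2 had mean changes of -0.01 and 0.07, neither called. The acetyltransferases EP300 and KAT5 fell by 1.78 and 1.80 in the mean of both shTMEM45A sets. HDAC5 and HDAC8 rose there, by 0.48 and 0.27.

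The genes whose profile was most like that of DHRS2 were sought by Pearson correlation of log2 CPM over the 15 libraries, among 11433 genes. They were ZNF585B (0.988), C12orf4 (0.987), POLR3C (0.984), APPBP2 (0.983), TUBB6 (0.982) and FAM200A (0.981). POLR3C, a subunit of RNA polymerase III, stood at 16.8 CPM in NC, 29.5 and 35.7 in the shSHCBP1 sets, and 40.6 and 52.0 in set 4 and set 2. TUBB6, a beta tubulin, stood at 39.7, 57.2, 65.65, 78.0 and 81.8 CPM in the same order. C12orf4 stood at 9.48, 19.4, 25.3, 25.35 and 31.4 CPM. All 6 ran in the order NC, shSHCBP1_1, shSHCBP1_2, set 4, set 2, and were chosen for that likeness, so that no test is given. Their log2 changes against NC lay between 0.53 and 2.26, below those of DHRS2 in every set.

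**Figure D5:**
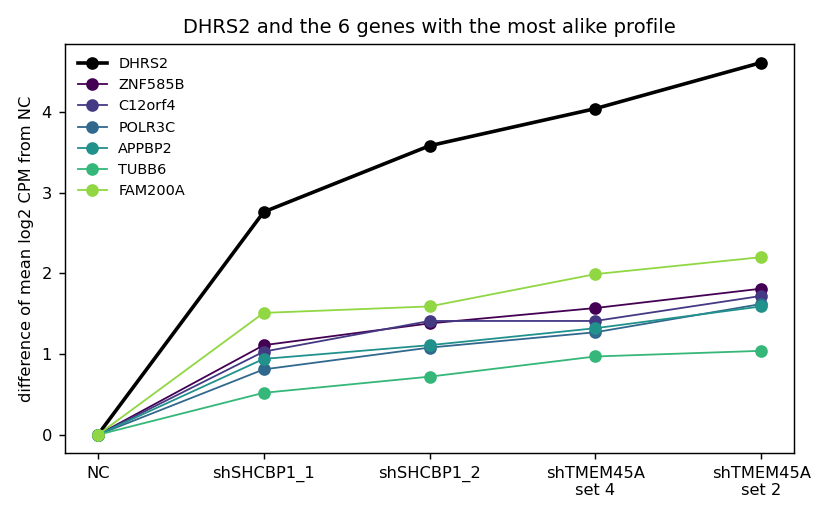
Difference of the mean log2 CPM of each group from that of NC, for DHRS2 and the 6 genes with the highest Pearson correlation to it over 15 libraries; lines join group means and carry no error. DHRS2 lies above the other 6 in each hairpin set, and FAM200A, with log2 changes of 1.54 to 2.26, comes next.

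Marker sums of other cell types also moved between the groups. The summed CPM of the basal breast list was 270.2 to 273.6 in NC, 279.4 to 302.8 in the shSHCBP1 libraries and 419 to 466 in the shTMEM45A libraries. KRT8 and KRT18 carried that rise: without them the sum of the other 18 was 146.7 to 149.9 in NC, 143.6 to 158.3 in the shSHCBP1 libraries and 117.6 to 151 in the shTMEM45A libraries. That of 12 markers of an embryonic kidney line, led by VIM, NEFM and NEFL, was 978.2 to 1010 in NC, 795.7 to 898.2 in the shSHCBP1 libraries and 1063 to 1187 in the shTMEM45A libraries. Within that list NEFL had 175.8 CPM in NC and 55.9 in set 2, whereas VIM had 417.7 and 739.3. Luminal breast markers summed to 256.4 to 269.1 in NC, 230.9 to 255.3 in the shSHCBP1 libraries and 193.7 to 215.9 in the shTMEM45A libraries. Fibroblast and endothelial markers summed to 48.65 to 52.4, 49.95 to 55.95 and 31.14 to 36.63 in the same order. Most of the latter sum was the single gene COL1A1, at 47.3 CPM in NC, 30.55 in set 4 and 30.25 in set 2. Immune markers summed to 6.58 to 7.84 in NC, 5.60 to 8.61 in the shSHCBP1 libraries and 9.54 to 15.7 in the shTMEM45A libraries. The part of these shifts in the levels of the DHRS genes was not tested.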

How the data were processed

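The authors deposited 2 tables of raw read counts by gene symbol, each with 58735 rows. Per the labels' protocols, poly-A RNA was made into NEBNext Ultra libraries, which do not mark strand, and sequenced as paired ends. The aligner, counter and annotation were not given in the sources used here. Human symbols fill the tables although the labels name the mouse, so they were read as human, and coordinates and sequences were not used here. Duplicated and date-like names (200, on 1768 rows) were dropped, leaving 56967. Columns were mapped by name. Set 2 of shTMEM45A was taken as the labels' set 2 and set 4 as the remaining set by elimination, so which stated hairpin each carries is uncertain. No 2 libraries held identical values.

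The filterByExpr filter (at least 10 counts, total of 15) passed 19051 genes. One fit of 5 group means over all 15 libraries was made with edgeR 4.0.16 in R 4.3.3, with TMM scaling, the quasi-likelihood F test and Benjamini-Hochberg adjustment over all genes tested (threshold 0.05). Every adjusted p comes from it unless another filter or scaling, a library left out, the replicate block or DESeq2 is named. SE is the size of the log2 change over the root of F. Library totals of 13748138 to 16460265 counts set the precision. The labels do not say that the 3 libraries of a group were separate cultures, so p-values measure the spread between libraries, which may be technical. The pipeline was tested on simulated data.

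The members and lists were chosen with earlier results of these data known. Named genes are all 8 members, both hairpin targets, the 6 genes most like DHRS2 (mean log2 CPM of at least 2, prior count 2), and from each list the 4 with the highest mean CPM and up to 2 rises and 2 falls per target. Alternatives were no filter, a filter of 1 CPM in 3 libraries, RLE or total-count scaling, only the groups compared, DESeq2 1.42.0, a replicate block, and leaving out each library. The results of 1 list, and the genes the rule names from it, are not reported here.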

Additional observations from a re-analysis of the deposited data

Results flagged for a closer look

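The DHRS2 difference between hairpins of the same target was tested directly and passed for both targets. It was 0.82 on the log2 scale for shSHCBP1_2 against shSHCBP1_1 and 0.57 for shTMEM45A set 2 against set 4, with every library of the one set above every library of the other. Over the alternatives the first ran from 0.78 to 0.86 and the second from 0.54 to 0.59.

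DHRS1 was called lower than NC in the mean of both shSHCBP1 sets (-0.19, edgeR adjusted p = 0.04028) and higher in the mean of both shTMEM45A sets (0.28, adjusted p = 0.000699). The tested difference between the targets was 0.46 (SE 0.06, adjusted p = 1.165e-08), and 0.12 (adjusted p = 0.05174) under total-count scaling. The targets stand in different deposited tables, and the 2 cannot be told apart here.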

How the results depend on the processing

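Of the DHRS2 comparisons without NC, all kept their call under every alternative run (22 for shSHCBP1_2 against shSHCBP1_1, 21 for each of the others). Total-count scaling moved the DHRS2 change against NC to 2.94, 3.78, 3.88 and 4.45 (shSHCBP1_1, shSHCBP1_2, set 4, set 2) and turned DHRS7 between the targets to -0.20. Without each library in turn, DHRS2 against NC ran from 2.73 to 2.83, 3.56 to 3.65, 4.01 to 4.11 and 4.58 to 4.67. For the single changes of the other 7, 1027 of 1057 alternatives kept direction and side of the threshold.

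Counts of the other 7 called were as follows where they moved. In shSHCBP1_1, 2 were higher by total counts and 1 in a fit of the groups compared, and 1 was lower by RLE and by DESeq2 (0 to 1 leaving out each library, DHRS1 without shSHCBP1_1 replicate 2). In shSHCBP1_2, 2 were higher by total counts and in the groups compared, and 1 was lower by RLE, DESeq2 and in the groups compared. Set 2 had 3 higher by total counts. Between the targets total counts gave 2 higher and 2 lower. For shSHCBP1_2 against shSHCBP1_1 the groups compared gave 1 higher (DHRS7B). For set 2 against set 4, 1 was lower (DHRS13) with no filter, the 1 CPM filter, total counts and DESeq2, and leaving out each library gave 0 to 1 in either direction (DHRS7B higher without set 2 replicate 2, DHRS13 lower without set 4 replicate 2 or set 2 replicate 3).

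Counts over all genes: shSHCBP1_1 had 1779 higher and 2008 lower, 4080 and 658 by total counts, 2728 higher in the groups compared, and 3091 and 3148 lower by RLE and DESeq2. shSHCBP1_2 had 2980 and 2941, and 5552 and 1243 by total counts. For shSHCBP1_2 against shSHCBP1_1 there were 95 higher and 64 lower, 163 and 39 by total counts, 894 and 780 in the groups compared, 179 and 198 by DESeq2, 101 lower with no filter, and 13 to 253 and 14 to 173 leaving out each library. For set 2 against set 4 there were 372 and 632, 44 and 85 in the groups compared, and 211 to 531 higher leaving out each library. The share of calls that were higher was 47%, 50.3%, 59.7% and 44.3% (shSHCBP1_1, shSHCBP1_2, shSHCBP1_2 against shSHCBP1_1, targets), 29.1%, 34.6%, 51.3% and 46.5% by RLE and 86.1%, 81.7%, 80.7% and 29.7% by total counts. The cause of these shifts was not tested.

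Replicate numbers did not pair the libraries: over 18 same-numbered pairs the correlation of deviations ran from -0.04 to 0.04, and 5 of 12 numbered libraries correlated best with their own number. With the number as a replicate block, DHRS2 was 2.80, 3.62 and 4.66 against NC in shSHCBP1_1, shSHCBP1_2 and set 2, and 0.82 (adjusted p = 5.388e-08) between the shSHCBP1 sets, with 1915 higher and 2101 lower genes in shSHCBP1_1. Set 4 carries no label numbers and could not be blocked. DESeq2 gave no adjusted p for 1850 genes.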
